A study of Mus musculus with 8 samples.

Results

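The 10 genes described here encode ligands that tumour cells and myeloid cells show to the checkpoint receptors of T cells. They were chosen by name and not by a rule on their values, but with earlier results of these data known. They are Cd274, Pdcd1lg2, Cd80, Cd86, Pvr, Nectin2, Lgals9, Cd276, Vtcn1 and Vsir. All 10 were among the 52459 gene symbols measured, and 7 of them were among the 14085 genes with enough counts to test. Pdcd1lg2, Cd80 and Vtcn1 did not pass the filter on low counts, and their counts are given without a test. RNA came from nodules of lung tumours that arose in genetically engineered mice, and all 4 groups shared this model and its mixed strain background. The groups were the combination of anti-PD-1 with JQ1, JQ1 alone, anti-PD-1 alone and vehicle, with 2 libraries each. JQ1 displaces BET bromodomain proteins from acetylated chromatin, and the antibody blocks PD-1, an inhibitory receptor of T cells. The labels give no dose, treatment time, age, sex, inducing agent or promoter of the model, and do not say whether the libraries of a group came from separate animals, so that the p-values here cover only the spread between libraries, part of which may be technical.

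Checkpoint ligands work in pairs with receptors on T and NK cells, and a T cell that meets its antigen is either released or held back by the balance of these pairs. PD-L1 (Cd274) and PD-L2 (Pdcd1lg2) engage PD-1, B7-1 (Cd80) and B7-2 (Cd86) engage both the activating CD28 and the inhibitory CTLA-4, and the nectin family members Pvr and Nectin2 engage the activating CD226 and the inhibitory TIGIT. Galectin-9 (Lgals9) is a sugar-binding lectin reported to bind the inhibitory receptor TIM-3, while B7-H3 (Cd276), B7-H4 (Vtcn1) and VISTA (Vsir) are further members of the B7 family that can inhibit T cells. Interferon gamma induces PD-L1 through JAK-STAT signalling and IRF1, and BET inhibitors have been reported to lower PD-L1 in cultured cancer cells. The design therefore puts the question of which of these ligands differ in tumour nodules after JQ1, after PD-1 blockade and after both.

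The libraries differed in depth and in ribosomal RNA. Total counts were 2719816 and 9034331 with the combination, and between 8977259 and 15224108 in the other 6 libraries. Ribosomal RNA genes took 45.8% and 52.6% of the counts with the combination, 34.5% and 27.2% with JQ1, 23.3% and 23.7% with anti-PD-1, and 23.4% and 21.4% with vehicle. Combination replicate 1 stood apart as the shallowest library, in which 1 count was worth 0.421 CPM (counts scaled to a common total by TMM library sizes), against 0.0574 CPM in vehicle replicate 2. The epithelial nature of the tissue showed in its markers: all 13 markers of lung and tumour epithelium were tested, Sftpc, Nkx2-1 and Epcam among them, and summed to between 6168 and 11017 CPM. Markers of T and NK cells, which carry the receptors, were close to absent: 0 of 13 passed the filter, they summed to between 0.421 and 3.35 CPM, and Ncr1, Klrb1c and Nkg7 had no count in any library. In bulk nodules, fewer cells of a type and less RNA per cell cannot be told apart. Coding regions were captured with probes, so that weak capture of a gene cannot be told from a low level either.

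No ligand passed the test in any of the 8 comparisons. The test was edgeR's quasi-likelihood F test in 1 fit of all 8 libraries, with Benjamini-Hochberg adjustment over all 14085 genes and a threshold of 0.05. The share of all genes called was 4.8% for the combination against vehicle, 0% for JQ1 against vehicle and 0% for anti-PD-1 against vehicle. It was 4.23% for the combination against anti-PD-1, 0.0213% for the combination against JQ1, 8.28% for JQ1 averaged over both antibody states, 0.0142% for the antibody averaged over both JQ1 states and 0% for the interaction. At an unadjusted p under 0.05, edgeR had 1 of 7 ligands (Cd276) for the combination against vehicle, where 27.3% of all genes were under it, 1 of 7 (Nectin2) for JQ1 against vehicle, beside 10.1% of all genes, and 0 of 7 for anti-PD-1 against vehicle, beside 1.97%. For JQ1 averaged over both antibody states it had 4 of 7 (Nectin2, Pvr, Cd276 and Cd86), beside 31.7% of all genes. Of these, Cd86 passed the filter on low counts only through libraries given JQ1. The combination had 1 of 7 (Nectin2) against JQ1, beside 14.1%, and 2 of 7 (Cd276 and Pvr) against anti-PD-1, beside 27%. The antibody averaged over both JQ1 states had 1 of 7 (Nectin2), beside 10.1%, and the interaction 0 of 7, beside 6.25%. DESeq2 called Cd276 for the combination against vehicle and for JQ1 averaged, and limma called no ligand in any comparison.

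The ligands spanned a wide range of levels. Per length of exon and averaged over the 8 libraries, Nectin2 had the highest level at 7.22 ± 3.27 CPM per kb (SD over 8 libraries), followed by Lgals9 at 6.999 ± 3.78, Cd276 at 5.47 ± 2.19 and Pvr at 3.29 ± 1.26 CPM per kb. Vsir had 1.05 ± 0.356 and Cd274 0.454 ± 0.172 CPM per kb. Vtcn1 at 0.226 ± 0.421, Cd86 at 0.168 ± 0.116, Pdcd1lg2 at 0.104 ± 0.170 and Cd80 at 0.0256 ± 0.0242 CPM per kb were the lowest. Every Pvr value lay above every Vsir value, with a lowest Pvr level of 2.07 and a highest Vsir level of 1.59 CPM per kb. All other neighbours in the order overlapped in their ranges. Within libraries Vsir exceeded Cd274 in all 8, while Nectin2 exceeded Lgals9, Lgals9 exceeded Cd276 and Cd276 exceeded Pvr in 5 of 8 each. The order also differed between groups: Cd276 came after Nectin2, Lgals9 and Pvr with the combination, at 2.59 ± 2.20 CPM per kb, and before all other ligands with vehicle, at 7.79 ± 0.260 CPM per kb (SD, n = 2 each). Coding regions were captured with probes, so that levels per length also depend on how well each gene is captured. The lengths were those of all exons and not of the coding regions alone, such as 6122 bases for Pvr and 2137 for Lgals9. The order per kb therefore depends on this choice of length. Without scaling to length the highest mean levels were 25.23 CPM for Nectin2, 20.13 for Pvr, 20.015 for Cd276 and 14.96 for Lgals9.

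**Figure D1:**
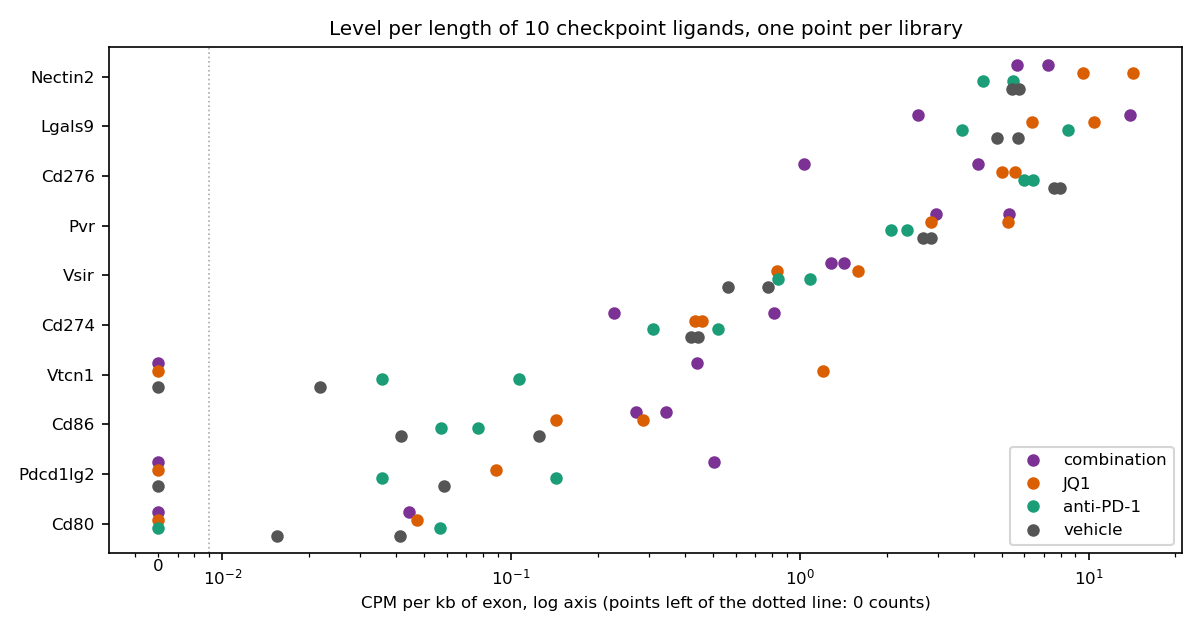
Level per kb of exon of the 10 ligands (log axis, CPM per kb), with the length taken over all exons. Each of the 8 libraries has a point, coloured by group. Points left of the dotted line had 0 counts. Nectin2, Lgals9, Cd276 and Pvr sit above 1 CPM per kb in all libraries, Cd274 below it in all, and Vtcn1, Pdcd1lg2 and Cd80 each have 3 libraries at 0.

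The ligands of PD-1 were low, and Cd274 differed little between groups. Cd274, the gene of PD-L1 and the ligand that the antibody keeps from PD-1, lies on chromosome 19 (29367455 to 29388095, plus strand, GRCm38). It had 7 and 5 counts with the combination, 15 and 19 with JQ1, 27 and 12 with anti-PD-1, and 20 and 28 with vehicle. In CPM these were 2.95 and 0.824 with the combination, 1.57 and 1.66 with JQ1, 1.89 and 1.13 with anti-PD-1, and 1.53 and 1.61 with vehicle. The combination and anti-PD-1 libraries spanned the vehicle values, and the 7 counts of combination replicate 1 carry a 95% Poisson interval of 1.18 to 6.07 CPM, which covers counting error only. The log2 fold change of Cd274 was 0.10 (95% interval -1.52 to 1.71) for the combination against vehicle, 0.04 (-1.39 to 1.48) for JQ1 against vehicle and -0.05 (-1.47 to 1.38) for anti-PD-1 against vehicle. The value for the combination was -0.93 without combination replicate 1 and 0.88 without combination replicate 2, and for anti-PD-1 it was -0.47 without anti-PD-1 replicate 1 and 0.27 without anti-PD-1 replicate 2. An antisense gene that touches exons of Cd274, AC119228.1, was not analysed here. At this depth a fall to 0.381 times or a rise to 2.78 times the vehicle level with JQ1 lies within the 95% interval.

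The 250 bases before the start of Cd274 are shown because its regulation by interferon and by BET proteins is what the treatments bear on, with those of Lgals9, another ligand known to respond to interferon, and of Nectin2, the ligand with the smallest unadjusted p for JQ1. The sequences are RefSeq's on GRCm38.p6, 5′ to 3′ on the strand of the gene, at chr19:29367188-29367437 (plus strand) for Cd274, chr11:78984925-78985174 (minus strand) for Lgals9 and chr7:19749574-19749823 (minus strand) for Nectin2. RefSeq windows were at hand for 8 of the 10 ligands. The Nectin2 window lies inside the gene's span in GENCODE vM21, and 22 bases of the Lgals9 window lie in its own exons.
Cd274: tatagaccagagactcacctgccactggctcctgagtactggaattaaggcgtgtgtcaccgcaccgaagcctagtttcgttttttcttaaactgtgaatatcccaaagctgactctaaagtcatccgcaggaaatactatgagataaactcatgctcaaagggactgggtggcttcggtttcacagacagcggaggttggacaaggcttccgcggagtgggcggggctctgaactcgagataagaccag
Lgals9: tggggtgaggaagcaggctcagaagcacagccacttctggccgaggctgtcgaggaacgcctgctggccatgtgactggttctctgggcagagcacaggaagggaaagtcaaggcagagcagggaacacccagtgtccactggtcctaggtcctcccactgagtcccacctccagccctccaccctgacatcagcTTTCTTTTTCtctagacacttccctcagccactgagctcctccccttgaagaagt
Nectin2: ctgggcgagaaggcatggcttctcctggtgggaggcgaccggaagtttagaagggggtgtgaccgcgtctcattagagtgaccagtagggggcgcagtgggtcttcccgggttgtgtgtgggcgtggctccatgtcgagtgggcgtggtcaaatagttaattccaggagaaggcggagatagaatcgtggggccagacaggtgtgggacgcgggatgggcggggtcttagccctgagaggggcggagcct
Capitals mark the only match, in any of the 8 windows, to the motifs searched on both strands: TTCNNNGAA for STAT factors, a pair of GAAA separated by 2 bases for IRF factors and CACGTG for E-box factors such as MYC. This match, to the IRF motif on the opposite strand, ends 45 bases before the start of Lgals9. Of 32851 RefSeq windows of the same length, 2.98% held the IRF motif, 7.02% the STAT motif and 6.02% the E-box. A match in letters is a description and not a bound site.

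Pdcd1lg2, the gene of PD-L2, lies beside Cd274 (chromosome 19, 29410919 to 29471161, plus strand) and was barely measured. It had 0 and 6 counts with the combination, 0 and 2 with JQ1, 1 and 3 with anti-PD-1, and 0 and 2 with vehicle, 14 counts in all. A count of 0 in combination replicate 1 allows up to 3 counts, or 1.26 CPM, which is above the 0.989 CPM of combination replicate 2, the highest value measured. An antisense gene that touches its exons, A930007I19Rik, had 50 counts, and without a stated strand setting reads from the pair cannot be told apart.

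The ligands of CD28 and CTLA-4 were also scarce. Cd80 (chromosome 16, 38455561 to 38496335, plus strand), an activation-induced B7 molecule of antigen-presenting cells, had 0 and 1 counts with the combination, 0 and 2 with JQ1, 3 and 0 with anti-PD-1, and 2 and 1 with vehicle. With 9 counts in all, no difference between groups was detectable. Cd86 (chromosome 16, 36603869 to 36666081, minus strand), the B7 molecule that resting antigen-presenting cells already carry, had 3 and 6 counts with the combination, 10 and 6 with JQ1, 3 and 3 with anti-PD-1, and 2 and 8 with vehicle.

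Scaled for depth, Cd86 was higher in each library given JQ1 than in each library without it. Its levels were 1.26 and 0.989 CPM with the combination, 1.05 and 0.523 with JQ1, 0.210 and 0.282 with anti-PD-1, and 0.153 and 0.459 with vehicle. The 4 libraries given JQ1 did not overlap the other 4. The same was true of 10.2% of all genes in this direction and of 9.35% in the other, where Cd276 was the only ligand. However, Cd86 passed the filter on low counts only through combination replicate 1 and JQ1 replicate 1, both given JQ1. Its lack of overlap and its JQ1 values thus come from a gene kept because it was high where JQ1 was given. The log2 fold change for JQ1 averaged over both antibody states was 1.70 (SE 0.70, 95% interval 0.15 to 3.24), with an adjusted p of 0.129 by edgeR, which is not a call. Against vehicle it was 1.76 (SE 0.999, adjusted p = 0.275) for the combination and 1.27 (SE 0.92, adjusted p = 0.614) for JQ1. Leaving out a library moved it to between 1.22 and 2.73 for the combination and between 0.71 and 2.25 for JQ1, the highest in both without vehicle replicate 2, and the lowest without vehicle replicate 1 for the combination and without JQ1 replicate 1 for JQ1. The whole of this rests on 41 counts, of which vehicle replicate 1 had 2.

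The markers of the cells that carry Cd86 gave the following values. Markers of macrophages and monocytes, 14 of 15 of which were tested, summed to 279 and 535 CPM with the combination, 316 and 243 with JQ1, 414 and 350 with anti-PD-1, and 482 and 324 with vehicle, and 0 of the 14 were called in any comparison. For JQ1 against vehicle 7 of the 14 had positive values, with a median log2 fold change of 0.04 beside 0.07 over all genes. Among them C1qa, a complement gene of macrophages, averaged 9.33 ± 3.71 CPM with JQ1 and 3.01 ± 0.604 CPM with vehicle (SD, n = 2 each), with an adjusted p of 0.443 by edgeR. Itgam, the integrin chain CD11b, averaged 3.39 ± 0.105 CPM with JQ1 and 1.19 ± 0.501 CPM with vehicle (adjusted p = 0.452 by edgeR). The complement genes C1qb and C1qc averaged 7.16 ± 1.74 and 5.24 ± 0.750 CPM with JQ1, and 2.87 ± 1.13 and 2.15 ± 0.524 CPM with vehicle (adjusted p = 0.478 and 0.464 by edgeR). Markers of dendritic cells, 3 of 12 of which were tested, summed to 12.6 and 15.2 CPM with the combination, 21.8 and 8.98 with JQ1, 24.3 and 13.4 with anti-PD-1, and 16.6 and 16.6 with vehicle. Markers of neutrophils, 5 of 8 of which were tested, summed to 12.2 and 3.46 CPM with the combination, 12.9 and 4.71 with JQ1, 2.86 and 3.005 with anti-PD-1, and 2.75 and 2.24 with vehicle. The neutrophil sum was thus higher in every library given JQ1, as Cd86 was. The gap was small between combination replicate 2, with 21 counts, and anti-PD-1 replicate 2, with 32 counts. The macrophage sum was lower in both JQ1 libraries than in both vehicle libraries, while the 4 macrophage genes named averaged higher with JQ1. Lyz2 and Chil3, with mean levels of 171 and 81.8 CPM over all libraries, were the largest in the macrophage sum. Of the 5 tested neutrophil markers, S100a8 alone was called for JQ1 averaged over both antibody states (log2 fold change 3.46, SE 0.71, adjusted p = 0.0278 by edgeR), and the call was lost without JQ1 replicate 1 (adjusted p = 0.0582), without anti-PD-1 replicate 2 (0.0746) or without either vehicle library (0.113 and 0.110). S100a8 had 64 counts in all and averaged 0.220 CPM with vehicle and 0.105 CPM with anti-PD-1. It thus passed the filter on low counts only through libraries given JQ1, where it was high, and its call comes after that selection. The part of macrophages, dendritic cells and neutrophils in the Cd86 values was not tested.

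**Figure D2:**
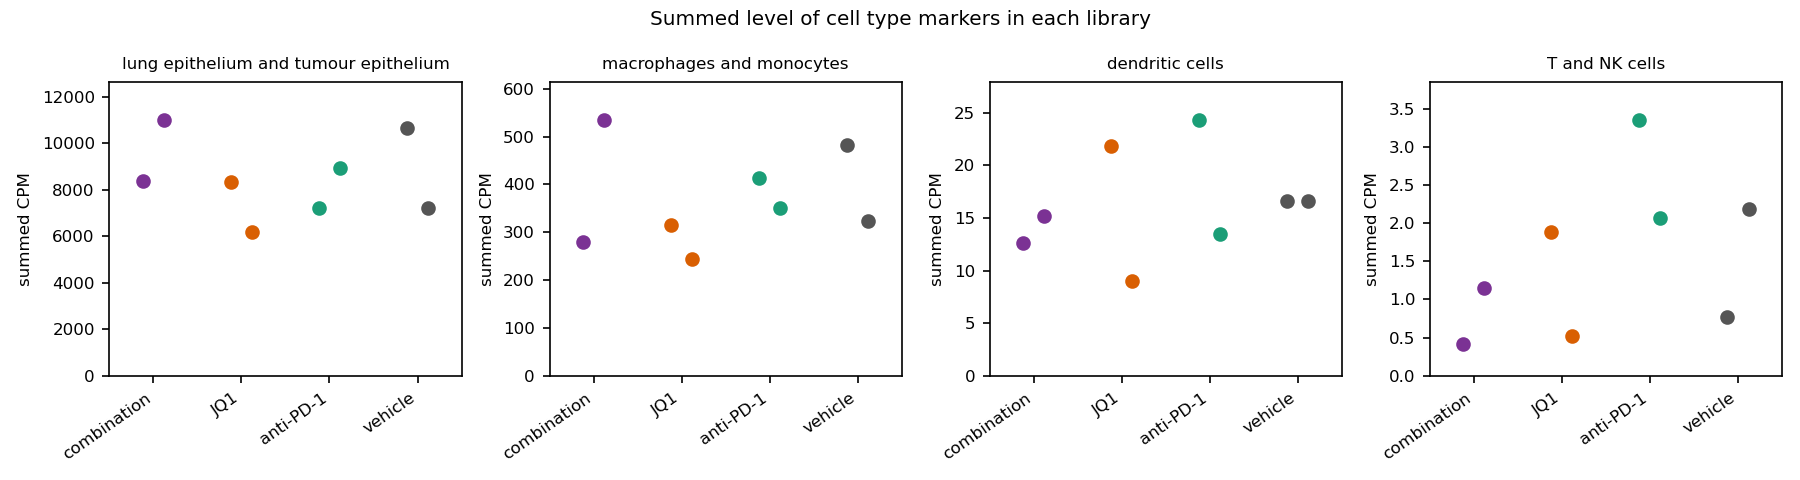
Summed CPM of the marker genes of 4 cell types in each library, by group; each point is 1 library. The epithelial sum lies between 6168 and 11017 CPM and the sum for T and NK cells at or below 3.35 CPM. The macrophage sum is lower in both JQ1 libraries than in both vehicle libraries, and the dendritic cell sum is lower in both combination libraries than in both vehicle libraries.

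Pvr and Nectin2, the ligands shared by TIGIT and CD226, were well measured. Pvr, the poliovirus receptor homologue CD155 (chromosome 7, 19903578 to 19921160, minus strand), had 43 and 197 counts with the combination, 166 and 369 with JQ1, 206 and 135 with anti-PD-1, and 215 and 304 with vehicle. Its levels were 18.1 and 32.5 CPM with the combination, 17.4 and 32.2 with JQ1, 14.4 and 12.7 with anti-PD-1, and 16.4 and 17.4 with vehicle. In both groups given JQ1, replicate 2 was far higher and replicate 1 was close to the vehicle libraries. The anti-PD-1 libraries lay below both vehicle libraries, as they did for 16% of all genes. In the edgeR fit the log2 fold change was 0.60 (SE 0.39, adjusted p = 0.336) for the combination against vehicle, 0.55 (SE 0.38, adjusted p = 0.597) for JQ1 against vehicle and -0.32 (SE 0.38, adjusted p = 1) for anti-PD-1 against vehicle, by edgeR. Without replicate 2 of the treated group the value was 0.07 for the combination and 0.03 for JQ1. Averaged over both antibody states the JQ1 value was 0.74 (SE 0.27, adjusted p = 0.100).

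Nectin2, or CD112 (chromosome 7, 19716644 to 19750483, minus strand), was highest with JQ1 alone. It had 60 and 120 counts with the combination, 476 and 385 with JQ1, 275 and 161 with anti-PD-1, and 263 and 330 with vehicle. Its levels were 25.3 and 19.8 CPM with the combination, 49.9 and 33.6 with JQ1, 19.2 and 15.1 with anti-PD-1, and 20.1 and 18.9 with vehicle. Both JQ1 libraries lay above the other 6. Among all genes, 26.3% had both JQ1 libraries above both vehicle libraries, and the share above all other 6 was not counted. The combination libraries were on either side of vehicle replicate 1. Scaled to the counts outside ribosomal RNA genes they were above both vehicle libraries (40.7 and 28.0 with the combination, 27.2 and 27.6 with vehicle). The log2 fold change for JQ1 against vehicle was 1.10 (SE 0.31, 95% interval 0.40 to 1.79), a fold of 2.14, with an unadjusted p of 0.00532 and an adjusted p of 0.443 by edgeR, which is not a call. For the combination it was 0.20 (SE 0.32, adjusted p = 0.720) against vehicle and -0.90 (SE 0.32, adjusted p = 0.261) against JQ1. The interaction, which asks whether JQ1 and the antibody together differ from the sum of each alone, was -0.72 (SE 0.45, adjusted p = 0.831), so that a difference in the JQ1 effect between the antibody states was not shown. Averaged over both antibody states the JQ1 value was 0.74 (SE 0.22, adjusted p = 0.0645). The epithelial marker sum, 8385 and 11017 CPM with the combination, 8344 and 6168 with JQ1, 7235 and 8945 with anti-PD-1, and 10670 and 7222 with vehicle, was not highest with JQ1 alone. Sftpb and Sftpc, with mean levels of 2905 and 1776 CPM over the 8 libraries, were the largest in this sum. For JQ1 averaged, 4 of its 13 genes rose (Epcam, Cdh1, Napsa and Scgb1a1) and 1 fell (Nkx2-1), beside 8.28% of all genes called. Their adjusted p lay between 0.0285 and 0.0431 by edgeR. With the ribosomal RNA share as a covariate, 5 of all genes were called in this comparison. Scgb1a1 also averaged 54.3 ± 46.7 CPM with anti-PD-1 alone and 4.42 ± 1.31 CPM with vehicle (SD, n = 2 each). For JQ1 against vehicle, 7 of the 13 were positive and 0 were called, with a median log2 fold change of 0.35, beside 0.07 over all genes. The part of epithelial cells in the Nectin2 values was not tested.

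Lgals9, or galectin-9 (chromosome 11, 78962974 to 78984946, minus strand), varied widely within groups. It had 13 and 181 counts with the combination, 213 and 156 with JQ1, 112 and 193 with anti-PD-1, and 135 and 212 with vehicle. Its levels were 5.47 and 29.8 CPM with the combination, 22.3 and 13.6 with JQ1, 7.82 and 18.1 with anti-PD-1, and 10.3 and 12.2 with vehicle. The combination held both the lowest and the highest library. For Lgals9 the log2 fold change was 0.71 (SE 0.67, adjusted p = 0.519) for the combination against vehicle, and without combination replicate 2 it turned to -1.06. It was 0.67 (SE 0.66, adjusted p = 0.710) for JQ1 against vehicle and 0.20 (SE 0.66, adjusted p = 1) for anti-PD-1 against vehicle.

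Cd276, or B7-H3 (chromosome 9, 58524298 to 58555437, minus strand), a B7 molecule found on many tumours, was lowest with the combination and highest with vehicle. It had 9 and 92 counts with the combination, 194 and 211 with JQ1, 313 and 251 with anti-PD-1, and 382 and 485 with vehicle. Its levels were 3.79 and 15.2 CPM with the combination, 20.3 and 18.4 with JQ1, 21.9 and 23.6 with anti-PD-1, and 29.2 and 27.8 with vehicle. Both combination libraries were below the other 6 and both vehicle libraries above the other 6, while the JQ1 libraries were below the anti-PD-1 libraries in these CPM but overlapped them when scaled to the counts outside ribosomal RNA genes (33.0 and 29.6 with JQ1, 31.4 and 31.9 with anti-PD-1). Among all genes, 29.1% had the combination libraries below vehicle without overlap, 22.9% the JQ1 libraries and 16% the anti-PD-1 libraries.

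The log2 fold change of Cd276 for the combination against vehicle was -1.498 (SE 0.47, 95% interval -2.55 to -0.45), or 0.354 times the vehicle level, with an adjusted p of 0.0847 by edgeR, which misses the threshold. Over the alternatives tried its adjusted p ranged between 0.00218 and 0.516, with a call by DESeq2 (-1.57, adjusted p = 0.0139) and with no filter on low counts. The size rested on combination replicate 1, the shallowest library: the value was -0.92 without it and -2.93 without combination replicate 2. It was -0.56 (SE 0.45, adjusted p = 0.644) for JQ1 against vehicle, -0.33 (SE 0.45, adjusted p = 1) for anti-PD-1 against vehicle and -1.17 (SE 0.47, adjusted p = 0.147) for the combination against anti-PD-1. Averaged over both antibody states the JQ1 value was -0.86 (SE 0.33, adjusted p = 0.106), and without combination replicate 2 it was -1.59 with an adjusted p of 0.0252, a call. The interaction was -0.61 (SE 0.65, adjusted p = 0.898), so that no departure from the sum of both single treatments was shown.

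The ribosomal RNA share was highest in the combination libraries, where Cd276 was lowest, and was similar with anti-PD-1 and vehicle. The fibroblast marker sum was lowest in the combination libraries too. It was highest in anti-PD-1 replicate 1, where Cd276 was below both vehicle libraries. This sum was 449 and 458 CPM with the combination, 786 and 623 with JQ1, 1649 and 991 with anti-PD-1, and 1273 and 1035 with vehicle, so that every library given JQ1 was below every library without it. Of 8 fibroblast markers 7 were tested, of which 2 rose and 1 fell for the combination against vehicle, beside 4.8% of all genes called. The one that fell was Col1a1, a collagen gene that made up most of the sum, with 253 ± 3.78 CPM with the combination and 955 ± 189 CPM with vehicle (SD, n = 2 each, adjusted p = 0.0178 by edgeR). That call was lost without combination replicate 2 (adjusted p = 0.0753) or without either vehicle library (0.113 and 0.0854). Those that rose were Dcn, a matrix proteoglycan, and Pdgfra, a growth factor receptor of fibroblasts. Dcn had 10.005 ± 4.03 CPM with the combination and 1.71 ± 0.390 CPM with vehicle (log2 fold change 2.58, adjusted p = 0.0293 by edgeR). Pdgfra had 42.0 ± 9.70 CPM with the combination and 10.3 ± 6.42 CPM with vehicle (log2 fold change 2.02, adjusted p = 0.0378 by edgeR, SD with n = 2 each for both genes). The Dcn call was lost without combination replicate 2 (0.133) or without either vehicle library (0.170 and 0.210), and with the ribosomal RNA share as a covariate its value turned to -0.41. The Pdgfra call was lost without any 1 of the combination, anti-PD-1 or vehicle libraries (adjusted p between 0.0542 and 0.224). With the ribosomal RNA share as a covariate the Cd276 value for the combination against vehicle was -4.70 with an adjusted p of 0.516. The part of fibroblasts in the Cd276 values was not tested.

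Vtcn1, or B7-H4 (chromosome 3, 100825459 to 100896922, plus strand), was carried by a single library. It had 0 and 7 counts with the combination, 30 and 0 with JQ1, 4 and 1 with anti-PD-1, and 0 and 1 with vehicle. JQ1 replicate 1, at 3.15 CPM, held 30 of the 43 counts, while JQ1 replicate 2 had none at nearly the same depth, so that the replicates of the group did not agree. Without a filter on low counts edgeR called Vtcn1 for JQ1 against vehicle (adjusted p = 0.0280), a call that rests on that library.

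Vsir, or VISTA (chromosome 10, 60346851 to 60372684, plus strand), a B7 family member known above all from myeloid cells, was lowest in vehicle. It had 17 and 39 counts with the combination, 76 and 48 with JQ1, 78 and 45 with anti-PD-1, and 37 and 68 with vehicle. Its levels were 7.15 and 6.43 CPM with the combination, 7.97 and 4.18 with JQ1, 5.45 and 4.23 with anti-PD-1, and 2.83 and 3.90 with vehicle. Each treatment's libraries lay above both vehicle libraries, as they did for 29.5% of all genes with the combination, 26.3% with JQ1 and 14.4% with anti-PD-1. The log2 fold change was 0.998 (SE 0.46, 95% interval -0.02 to 2.01, adjusted p = 0.190) for the combination against vehicle, 0.84 (SE 0.44, adjusted p = 0.523) for JQ1 against vehicle and 0.52 (SE 0.44, adjusted p = 1) for anti-PD-1 against vehicle, by edgeR. Leaving out a library moved the Vsir value for JQ1 against vehicle to between 0.30 (without JQ1 replicate 1) and 1.23 (without JQ1 replicate 2). The 3 comparisons share the vehicle libraries, and vehicle replicate 1 was the lowest of all. Its gene lies within the span of Cdh23 on the opposite strand, but Cdh23 had 15 counts in all. Genes on the opposite strand that touch exons of Cd276, Pvr and Nectin2 had 3, 1 and 1 counts. The endothelial markers, all 8 of them tested, summed to 194 and 189 CPM with the combination and 183 and 155 with JQ1. With anti-PD-1 they summed to 159 and 148, and with vehicle to 88.4 and 118, so that their sum was lowest in vehicle too. For the combination against vehicle 2 of these 8 markers rose and 0 fell by edgeR, beside 4.8% of all genes called. For JQ1 and for anti-PD-1 against vehicle 0 of them were called. Their part, and that of the myeloid markers given above, in the Vsir values was not tested.

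**Figure D3:**
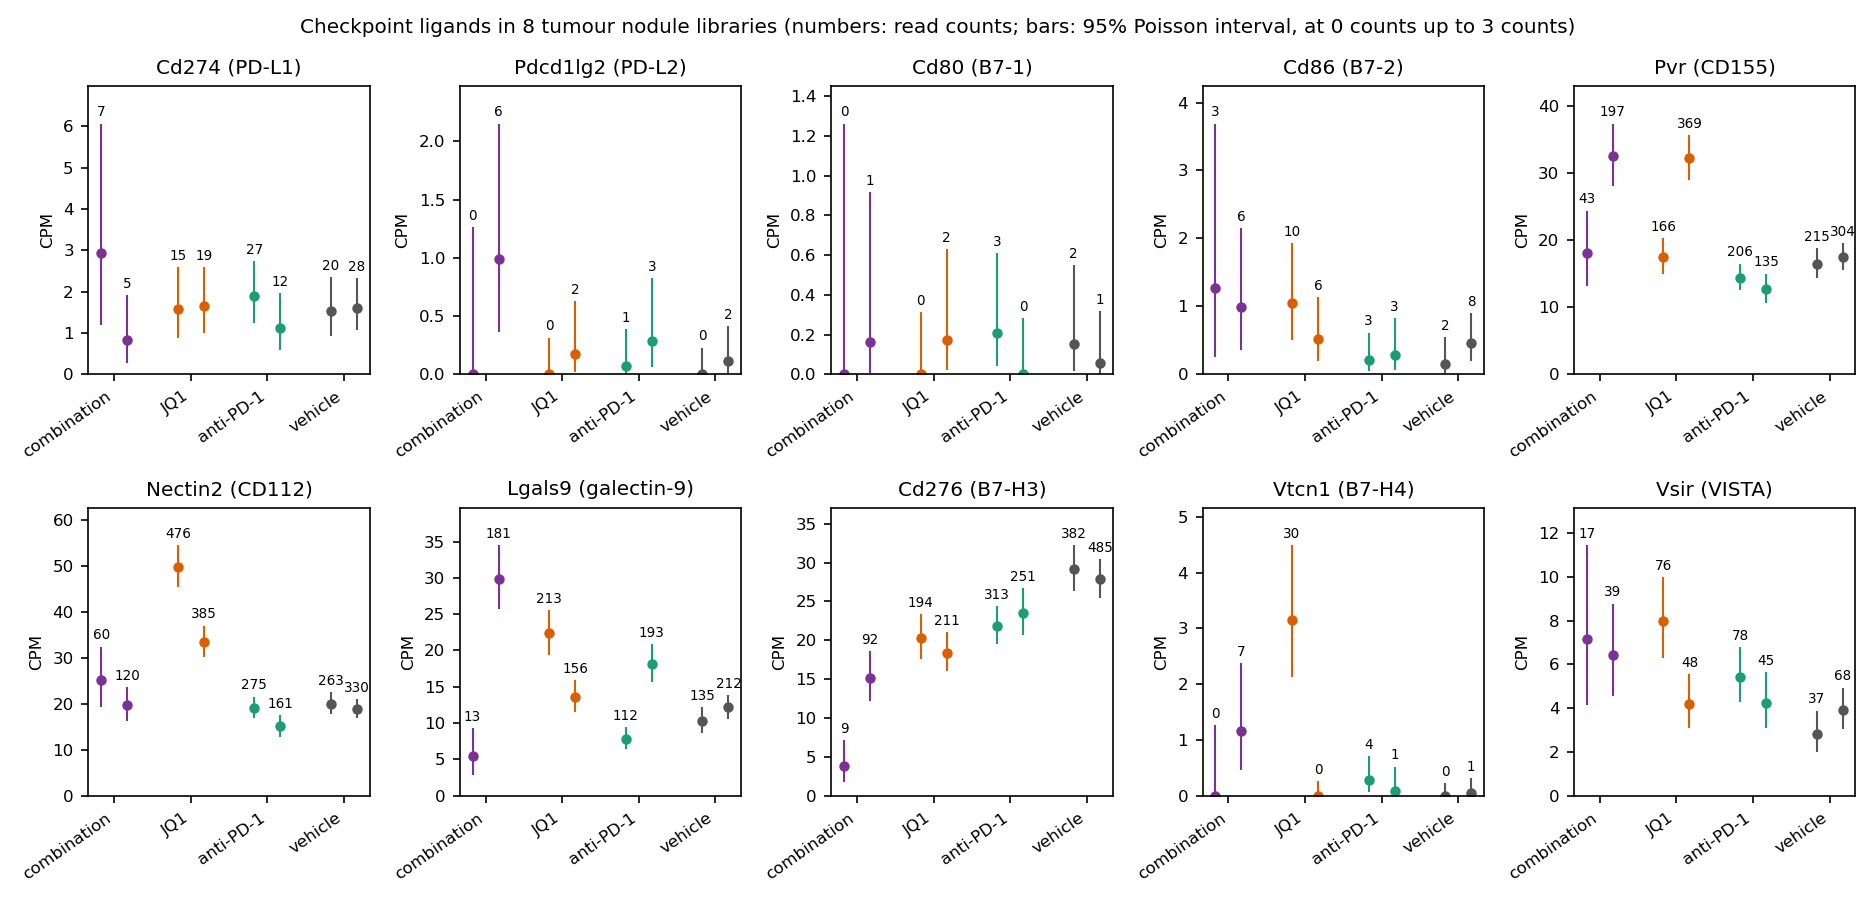
Level of each ligand in CPM in each library, by group, with the read count printed above each point and the 95% Poisson interval as a bar (up to 3 counts where the count was 0). Cd276 has its lowest values with the combination and its highest in vehicle, with JQ1 just below anti-PD-1 on this scale (they overlap when scaled to the counts outside ribosomal RNA genes), both JQ1 libraries of Nectin2 stand above all others, and Pdcd1lg2 and Cd80 have at most 6 and 3 counts in a library.

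Seen together, the 7 tested ligands mostly had positive values where JQ1 was given, with Cd276 the exception. Their median log2 fold change was 0.60 for the combination against vehicle, 0.67 for JQ1 against vehicle and -0.18 for anti-PD-1 against vehicle, where the medians of all genes were 0.07, 0.07 and -0.0004. For the combination against vehicle, 3 of 7 were higher without overlap (Vsir, Pvr and Cd86), where 29.5% of all genes were, and 1 was lower. For JQ1 against vehicle, 4 of 7 were higher without overlap (Vsir, Lgals9, Nectin2 and Cd86), where 26.3% of all genes were, and 1 was lower. For anti-PD-1 against vehicle, 1 of 7 was higher (Vsir), beside 14.4% of all genes, and 2 were lower (Cd276 and Pvr), beside 16%. For the combination against JQ1, 0 of 7 were higher, beside 19.7% of all genes, and 2 were lower (Cd276 and Nectin2), beside 21.3%. For the combination against anti-PD-1, 4 of 7 were higher (Vsir, Pvr, Nectin2 and Cd86), beside 27.9%, and 1 was lower (Cd276), beside 26.8%. For the antibody averaged over both JQ1 states, all 7 ligands overlapped, where 1.36% of all genes were higher and 1.25% lower without overlap. These counts are a description of 7 genes, none of which was called, and Cd86 passed the filter on low counts only through libraries given JQ1.

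**Figure D4:**
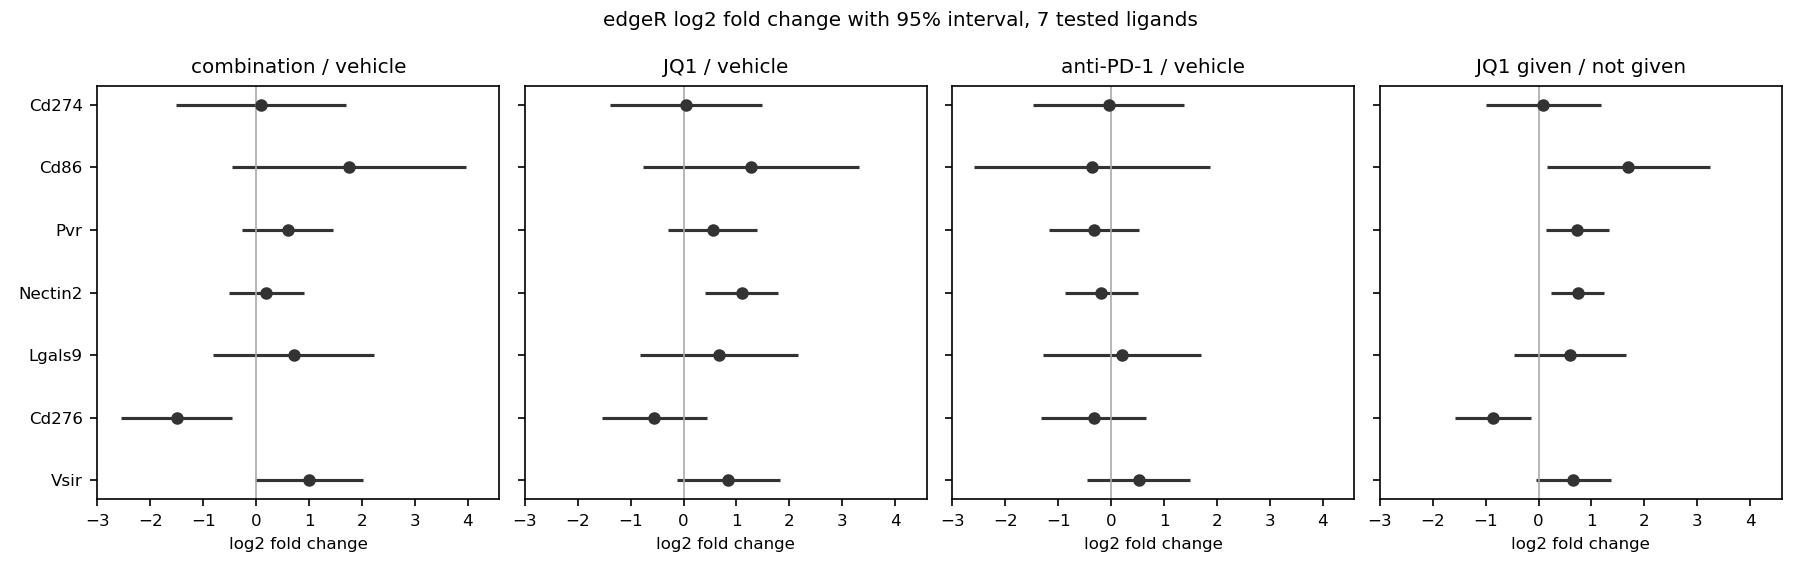
Log2 fold change of the 7 tested ligands with its 95% interval from the edgeR fit, for the combination, JQ1 and anti-PD-1 against vehicle and for JQ1 given against not given. Only the interval of Cd276 excludes 0 for the combination, only that of Nectin2 for JQ1 alone and none for anti-PD-1. For JQ1 given against not given, those of Cd276, Pvr, Nectin2 and Cd86 exclude 0. All of these are intervals without adjustment for the number of genes, and Cd86 passed the filter only through libraries given JQ1.

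The receptors of these ligands were near the floor. Of 14 receptor genes of lymphocytes, 1 had enough counts to test, Havcr2 (TIM-3), which myeloid cells carry too. It averaged 1.501 ± 0.258 CPM with the combination, 0.603 ± 0.483 with JQ1, 0.944 ± 0.937 with anti-PD-1 and 0.822 ± 0.0260 with vehicle (SD, n = 2 each), and was not called. Pdcd1, the gene of PD-1 itself, had 8 counts in all: 1 and 2 with the combination, 0 and 0 with JQ1, 4 and 1 with anti-PD-1, and 0 and 0 with vehicle. All 8 lay in libraries given the antibody, but so few counts cannot show a difference between groups. Pdcd1 was not tested, and was named after its values were seen. Of the tested genes, 1.36% were higher without overlap in the libraries given the antibody. Over all libraries Ctla4 had 44 counts, 25 of them in anti-PD-1 replicate 1, Cd28 had 28, Tigit 10, Cd226 1 and Cd96 none. How well the probes capture these receptor genes was not tested.

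Other ligands and surface partners of T cell checkpoints were 22 genes, of which 14 were tested. For the combination against vehicle 0 rose and 1 fell, beside 4.8% of all genes called, with a median log2 fold change of 0.34, beside 0.07 over all genes. The gene that fell was Nectin1, a cell adhesion molecule of the nectin family, with 41.2 and 22.1 CPM with the combination and 88.1 and 73.6 CPM with vehicle. Its log2 fold change was -1.37 (SE 0.33, adjusted p = 0.0433 by edgeR), and the call was lost without combination replicate 2 (-0.997, adjusted p = 0.163), without either vehicle library (adjusted p = 0.234 and 0.196) or without either anti-PD-1 library (adjusted p = 0.0635 and 0.0631). Nectin1 also fell for the combination against anti-PD-1 (-1.33, SE 0.33, adjusted p = 0.0499) and for JQ1 averaged over both antibody states (-1.15, SE 0.23, adjusted p = 0.0253). The first of these calls was lost without combination replicate 2, either anti-PD-1 library or either vehicle library (adjusted p between 0.0901 and 0.170) and the second without JQ1 replicate 2 (0.0514), either anti-PD-1 library (0.0628 and 0.0689) or either vehicle library (0.0974 and 0.0888). With the ribosomal RNA share as a covariate the value for the combination against vehicle was -0.71 (adjusted p = 0.902). For JQ1 against vehicle, where no nectin was called by edgeR, the log2 fold changes were 1.10 for Nectin2, -0.97 for Nectin1, -0.67 for Nectin3 (adjusted p = 0.533) and -1.53 for Nectin4 (adjusted p = 0.443). Icosl, the ligand of ICOS, averaged 3.52 ± 2.01 CPM with the combination and 0.717 ± 0.0414 CPM with vehicle (SD, n = 2 each), with an adjusted p of 0.0624. For JQ1 and for anti-PD-1 against vehicle, 0 of 14 were called by edgeR. Igsf11, a VISTA ligand, averaged 0.129 ± 0.0834 CPM with anti-PD-1 and 1.74 ± 0.998 CPM with vehicle (SD, n = 2 each), with an adjusted p of 1 by edgeR.

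The route from interferon gamma to PD-L1 was represented by 23 genes, of which 22 were tested. For the combination against vehicle 1 rose and 0 fell, beside 4.8% of all genes called, with a median of 0.40, beside 0.07 over all genes, and for JQ1 and for anti-PD-1 against vehicle 0 were called. The gene that rose was Ifngr1, the ligand-binding chain of the interferon gamma receptor, with 19.8 and 75.5 CPM with the combination and 7.56 and 5.39 CPM with vehicle. Its log2 fold change was 2.90 (SE 0.58, adjusted p = 0.0327 by edgeR), and without combination replicate 2 it was 1.59 and not called (adjusted p = 0.133). The call was also lost without either vehicle library (adjusted p = 0.185 and 0.220) or either anti-PD-1 library (0.0532 and 0.0531), and with the ribosomal RNA share as a covariate the value turned to -2.39 (adjusted p = 0.678). Cmtm6, which keeps PD-L1 on the cell surface, averaged 29.2 ± 16.9 CPM with the combination and 13.0 ± 2.66 CPM with vehicle (SD, n = 2 each), with an adjusted p of 0.107. Cd274 itself stood at 0.10 in this comparison, as above.

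The genes whose levels most resembled those of the well-measured ligands over the 8 libraries were found by Pearson's r of log2(CPM + 0.5) among 10555 genes, as a description with no test. For Cd276 they were Ppm1m (r = 0.991) and Acvr1 (0.984), for Vsir Pltp (0.991) and Tnfaip3 (0.970), and for Lgals9 Rogdi (0.980) and Ptar1 (0.953). For Pvr they were Mrps10 (0.976) and Brf1 (0.970), and for Nectin2 Nifk (0.979) and Mrps21 (0.973). Libraries of a group share their treatment, and in part their ribosomal RNA share and depth, and these are the highest of 10555 values for each ligand.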

How the data were processed

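Libraries of frozen tumour nodules were prepared by TruSeq RNA Access, in which coding regions are captured with probes, per the labels' protocols. Per the submitters' processing notes, bcl2fastq, STAR, featureCounts and DESeq2 were used, with the builds mm10 and GRCm38. No version, annotation or strand setting is given in the sources used here. The authors deposited whole-number read counts per gene symbol, and a normalized signal equal to those counts divided by 1 factor per library. From the signal, 100% of the reads were recovered whole (tolerance 0.05 reads), and the test on them gave the same values.

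Counts were tested with edgeR 4.0.16 in R 4.3.3 (filterByExpr, TMM, robust glmQLFit, glmQLFTest, prior count 0.125) in 1 fit of 8 libraries, with 4 residual degrees of freedom and a biological coefficient of variation of 0.332. SE is that of the log2 fold change. Alternatives used DESeq2 1.42.0 and limma 3.58.1. The steps were tested on simulated data. Some items that the labels or lists name are not reported here. No library was a copy of another (smallest chi-square per degree of freedom 21.7 within groups and 19.5 between them). Replicates were numbered in accession order. Coordinates and exon lengths are GENCODE vM21's, matched by symbol. The members, lists and tests were chosen with earlier results of these data known. Genes named beside the ligands were taken from the up to 4 of each list with the smallest p against vehicle and those called, not all of which are named. The untested receptors were named after their values were seen. For ligands with at least 400 counts the 2 most alike genes are named.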

Additional observations from a re-analysis of the deposited data

How the results depend on the processing

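The number of ligands called, 0 in all 8 comparisons, changed under few alternatives. Without the filter on low counts, 1 ligand was called for JQ1 against vehicle (Vtcn1), 1 for the combination against vehicle (Cd276), 1 for the combination against anti-PD-1 (Cd276) and 2 for JQ1 averaged over both antibody states (Cd276 and Vtcn1). With DESeq2 it was 1 for the combination against vehicle and 1 for JQ1 averaged, Cd276 in both. Leaving out each library in turn gave 0 to 1 for JQ1 averaged, where Cd276 was called without combination replicate 2, and 0 in the other 7 comparisons. Of 870 ligand values under alternatives, 792 kept sign and call, 6 became calls, all of Cd276, and 72 changed sign, 4 of them by more than 1 SE on both sides. Those 4 were Lgals9: with the ribosomal RNA share as a covariate it was -0.98 for JQ1 against vehicle, -4.77 for the combination against vehicle and -2.85 for JQ1 averaged, and for the combination against vehicle it ran between -1.06 and 1.40 with a library left out, the lowest without combination replicate 2. The cause was not tested. That covariate follows the groups closely, so that the treatments and the share can hardly be told apart. Scaled to the counts outside ribosomal RNA genes, the mean level with JQ1 relative to vehicle was 1.18 for Cd274 and 0.782 for Cd276. No paired analysis was possible because the labels give no replicate numbers.

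The number of all genes called depended more on the settings. The combination against vehicle had 676, with 1992 without the filter, 1677 by DESeq2, 245 with only the libraries compared, 2 with the ribosomal covariate and 7 to 1115 with a library left out (7 without vehicle replicate 2, 1115 without combination replicate 1). For JQ1 averaged it was 1166, with 2527 without the filter, 2182 by DESeq2, 5 with the covariate and 17 to 1716 with a library left out (17 without vehicle replicate 2). The combination against anti-PD-1 had 596, with 1920 without the filter, 1602 by DESeq2, 57 with only the libraries compared, 0 with the covariate and 3 to 967 with a library left out (3 without anti-PD-1 replicate 1, 967 without combination replicate 1). For JQ1 against vehicle it was 0, with 250 without the filter, 84 by DESeq2, 4 with the covariate, 1 with only the libraries compared and 0 to 17 with a library left out (17 without JQ1 replicate 2). For anti-PD-1 against vehicle it was 0, with 55 without the filter, 11 by DESeq2 and 0 to 1 with a library left out. The combination against JQ1 had 3, with 672 without the filter, 418 by DESeq2 and 0 to 114 with a library left out (114 without combination replicate 1). For the antibody averaged it was 2, with 426 without the filter, 199 by DESeq2 and 0 to 43 with a library left out (43 without combination replicate 1), and for the interaction 0, with 138, 20 and 0 to 1. Reads recovered from the normalized signal, an alternative added after seeing the data, changed nothing. Depth limits Pdcd1lg2, Cd80, Vtcn1, Cd86 and Cd274 most.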
